A study of Mus musculus with 5 samples.

Results

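The smooth muscle and contractile actin genes Acta2, Tagln, Tagln2, Cnn1, Cnn2, Myl9, Tpm1, Tpm2, Actn1 and Ccn2 are 10 of the 32285 genes counted in mouse epiblast stem cells (EpiSCs) differentiated under 5 levels of FGF signaling. They were chosen by their measured levels in these libraries, so their differences between conditions describe the choice and were not tested. Each symbol had 1 row in the files. EpiSCs are pluripotent lines derived from the epiblast after implantation, here a wild-type line of a 129 background. All cells were cultured for 3 days in N2B27 medium with 1 µM CHIR99021 (Chi, an inhibitor of GSK3 that activates Wnt signaling) and 8 ng/ml BMP. There was 1 sequenced library for each culture. The cultures received 30 nM of the FGF receptor inhibitor AZD4547 (FGFRi), or FGF2 at 0, 0.75, 3 or 12 ng/ml. No FGF2 dose is given for the FGFRi library, so effects of the inhibitor and of any FGF2 in that culture cannot be told apart.

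Filaments of actin slide along myosin in contractile cells. Acta2 encodes smooth muscle actin, Myl9 a regulatory light chain of myosin II, and Tpm1 and Tpm2 tropomyosins, which wrap around the filament. Tagln and Tagln2 (transgelins) and Cnn1 and Cnn2 (calponins) encode related actin-binding proteins, Actn1 the crosslinker alpha-actinin, and Ccn2 a secreted matricellular protein. Several of these genes are known targets of the serum response factor (SRF), which binds the CArG box together with myocardin or the actin-sensing MRTF cofactors. Ccn2 is a known target of YAP and TEAD, and TEAD factors bind the MCAT site. In embryos such genes are switched on in smooth muscle, but also in early heart, somites and mesenchyme. Acta2 and Tagln alone therefore do not name a cell type.

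The promoter sequences of 8 of the genes, from RefSeq (GRCm38.p6), are shown where they hold one of these motifs. Tagln and Ccn2 were not in the table. Windows ran from 250 bases before to 50 bases after the start of the gene in RefSeq, from which distances are counted. The CArG box was searched as a pair of C, a run of 6 A or T in any order, and a pair of G, which reads as the same pattern on both strands. The MCAT site was searched as CATTCC on both strands. Of 32851 windows, 1.63% held a CArG box and 14.7% an MCAT site. Among the 8 genes, 2 held a CArG box of this strict form (Cnn2 and Myl9) and 3 an MCAT site (Acta2, Tagln2 and Tpm1), and none held both. Boxes with a G or C within the run were not searched, and the Acta2 window holds such stretches (ccctatatgg and ccttgtttgg). Absence of a match therefore does not mean that a gene has no CArG box. No match was found for Cnn1, Tpm2 or Actn1 in these windows. The Cnn2 sequence (chr10:79988350-79988583, plus strand) and the Myl9 sequence (chr2:156775214-156775419, plus strand) end before the first annotated exon, and capitals mark the CArG box, which begins 56 and 161 bases before the start.
Cnn2: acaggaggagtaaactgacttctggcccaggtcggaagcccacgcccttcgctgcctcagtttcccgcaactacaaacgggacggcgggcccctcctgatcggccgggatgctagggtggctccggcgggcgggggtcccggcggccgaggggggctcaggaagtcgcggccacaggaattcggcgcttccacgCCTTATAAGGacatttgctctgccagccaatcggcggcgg
Myl9: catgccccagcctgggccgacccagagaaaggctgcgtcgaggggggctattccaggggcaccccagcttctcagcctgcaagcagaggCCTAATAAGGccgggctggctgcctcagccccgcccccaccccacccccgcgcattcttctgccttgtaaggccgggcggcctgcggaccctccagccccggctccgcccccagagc

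Around the MCAT sites 30 bases are given, with the site in capitals. Counted from the RefSeq start, the site of Acta2 began 146 bases upstream (chr19:34255502-34255531, minus strand). Those of Tagln2 began 118 and 80 bases upstream (chr1:172500116-172500145 and chr1:172500154-172500183, plus strand). That of Tpm1 began 56 bases upstream (chr9:67049252-67049281, minus strand). In the GENCODE vM21 annotation these genes begin further upstream, so the stretches shown lie within the annotated genes. In Acta2 and Tpm1 the site lies in reverse.
Acta2: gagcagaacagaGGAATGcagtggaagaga
Tagln2, distal: tcctttacggctCATTCCtgcctactgacc
Tagln2, proximal: taagcgctccagCATTCCacgcggcggcgc
Tpm1: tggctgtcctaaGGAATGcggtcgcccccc

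The genes lie on several chromosomes. By GENCODE vM21 on GRCm38, Acta2 spans 34241090 to 34255590 of chromosome 19, Tagln 45929619 to 45936058 and Tpm1 67022590 to 67049406 of chromosome 9, and Ccn2 24595442 to 24598683 of chromosome 10. Tagln overlaps the end of Pcsk7 and the antisense gene Gm48529, both on the opposite strand, and Ccn2 overlaps Gm15270 on the opposite strand. Actn1 overlaps 3 other genes, 1 of them (Gm47765) on its own strand. The use of strand in counting is not given in the sources used here, so reads in these overlaps cannot be assigned with certainty.

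Barcodes with at least 2500 detected genes and at most 10% of mitochondrial counts were retained, which left between 1696 and 2725 cells per library. Median depth was 24408 unique molecular identifiers (UMIs, 1 per captured RNA molecule) per cell with the FGFRi and between 27451.5 and 29661.5 in the FGF2 libraries. A total of 7 barcodes occurred among the retained cells of more than 1 library. Levels are given as counts per 1000000 UMIs (CPM), from the UMIs of a gene and of all genes summed over the cells of a library. With 1 library per condition, intervals (95%, exact) cover counting error only, and no test between conditions was possible. In such sums, a lower share of cells with a gene and less RNA per cell cannot be told apart, and shares of cells are given for that reason.

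All 10 genes had their highest level in the FGFRi library. In the order FGFRi, 0, 0.75, 3 and 12 ng/ml FGF2, used for each gene from here on, Acta2 levels were 1008, 141, 23.0, 14.9 and 15.7 CPM. Tagln levels were 1915, 477.5, 104.6, 22.9 and 42.0 CPM. The FGFRi level was 7.15-fold (6.99 to 7.32) that of 0 ng/ml for Acta2 and 4.01-fold (3.96 to 4.06) for Tagln. A further step separated 0 from 0.75 ng/ml, with a level at 0 ng/ml that was 6.12-fold (5.82 to 6.44) higher for Acta2 and 4.57-fold (4.46 to 4.68) higher for Tagln. From the highest to the lowest library, Acta2 spanned 67.6-fold and Tagln 83.7-fold.

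The paralog of Tagln differed less. Tagln2, a transgelin that is also common outside muscle, had levels of 583, 355, 207, 135 and 148 CPM, and spanned 4.31-fold. The calponins also differed in span, with a wider one for the gene of smooth muscle than for the broader paralog. Cnn1 was counted at 52.7, 27.2, 6.21, 1.89 and 3.59 CPM, and Cnn2 at 415, 209, 96.5, 53.9 and 73.0 CPM. Cnn1 spanned 27.9-fold and Cnn2 7.70-fold. Between the FGFRi and 0 ng/ml, however, the calponins had similar ratios (Cnn1 1.94-fold, 1.82 to 2.07, and Cnn2 1.99-fold, 1.94 to 2.03). Tagln (4.01-fold) and Tagln2 (1.64-fold) differed at that step. Myl9 had 42.2, 16.99, 7.48, 5.03 and 5.33 CPM.

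Among the filament proteins, Tpm1 levels were 3820, 1699, 944, 754 and 881 CPM. Tpm2 had 298, 140, 84.4, 67.1 and 63.6 CPM, and was the only one of the 10 with its lowest level at 12 ng/ml. Actn1 had 416, 253, 162, 135 and 145 CPM, the narrowest span (3.09-fold). Ccn2 had few UMIs. Its levels were 31.0, 10.05, 1.74, 0.635 and 2.08 CPM, of which the lowest rested on 41 UMIs. The neighbors in order whose ratio interval held 1 were 3 and 12 ng/ml for Acta2 and Myl9, and 0.75 and 12 ng/ml for Ccn2.

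**Figure D1:**
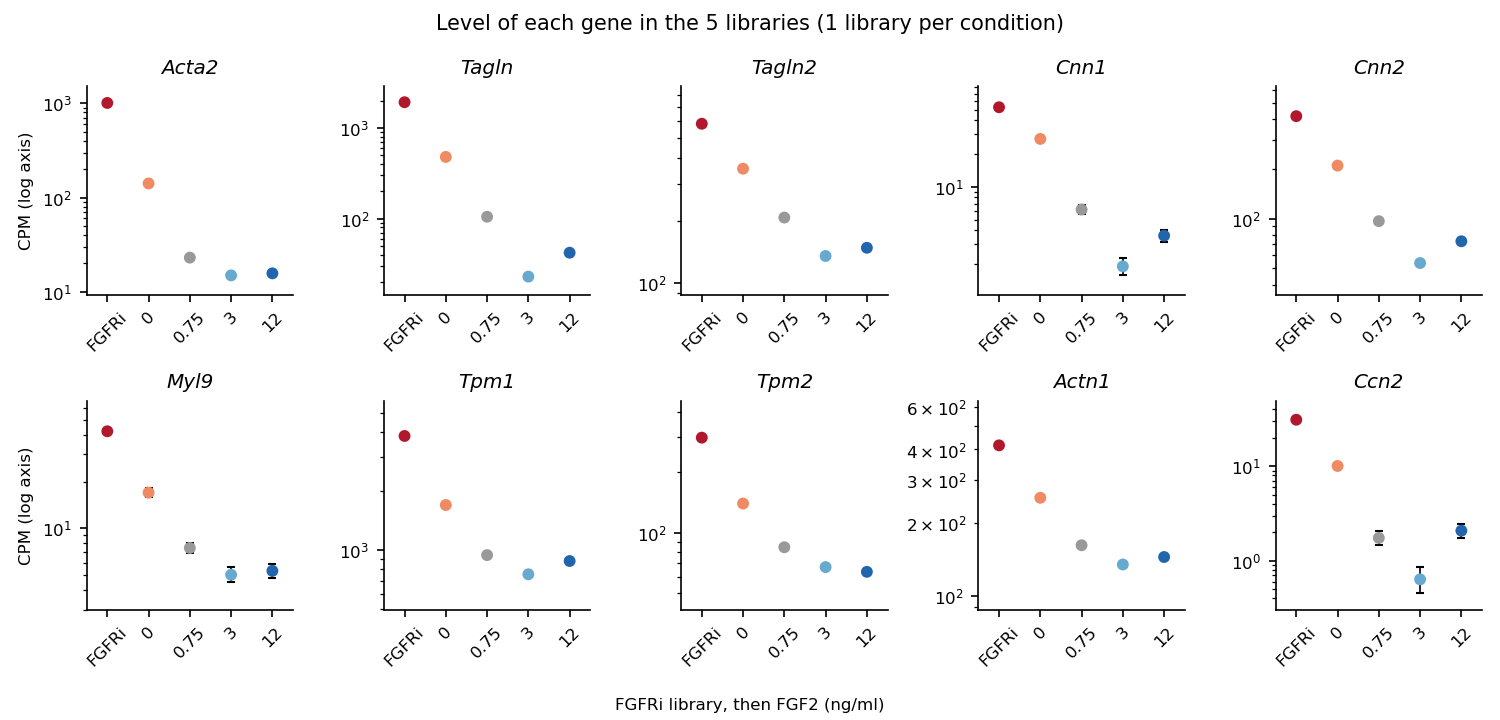
Level of each gene (CPM, log axis) in the FGFRi library and at 0, 0.75, 3 and 12 ng/ml FGF2, 1 point per library, with exact Poisson 95% intervals, which are mostly smaller than the points. Each gene is highest with the FGFRi, Acta2 for example at 1008 CPM, and 9 of 10 are lowest at 3 ng/ml.

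The median log2 ratio of the 10 genes was -1.13 from the FGFRi to 0 ng/ml, beside 0.01 over the 3283 genes that reached 50 CPM in one or both libraries. It was -1.15 from 0 to 0.75 ng/ml, -0.62 from 0.75 to 3 ng/ml and 0.18 from 3 to 12 ng/ml, and over all genes it lay between 0.006 and 0.026 in these pairs. The medians of the 10 also included genes under 50 CPM, which the medians over all genes left out. Only 8, 7 and 6 of the 10 reached 50 CPM in the first 3 pairs, so these medians are not directly comparable. A rule of size asked for 50 CPM in one or both libraries and a ratio of 2 or more. By this rule, 4 of the 8 genes that reached 50 CPM were lower at 0 ng/ml than with the FGFRi (Acta2, Tagln, Tpm1 and Tpm2), beside 4.6% of all genes, and none was higher, beside 1.86%. From 0 to 0.75 ng/ml, 3 of 7 were lower (Acta2, Tagln and Cnn2; background 1.35%) and none was higher (0.164%). From 0.75 to 3 ng/ml, 1 of 6 was lower (Tagln; background 0.299%) and none was higher (0.133%). The call of Tagln ended without the 5% of cells with most of its UMIs, although its log2 ratio was then -3.31 in place of -2.19. From 0 to 12 ng/ml, 5 of 7 were lower (Acta2, Tagln, Tagln2, Cnn2 and Tpm2; background 2.93%) and none higher (1.21%). As these contrasts chose the genes, nothing is read from the counts against the background. Cnn2 (1.99-fold, 1.94 to 2.03) lay just under the ratio between FGFRi and 0 ng/ml, and Tpm2 (2.14-fold, 2.08 to 2.20) just over it.

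Levels were not lower again at the highest dose. Of the 10 genes, 9 had a higher level at 12 than at 3 ng/ml, with intervals clear of 1 for 7 of these 9, and no gene of any kind passed the rule of size in this pair (0.0% in both directions). Ccn2 was 3.27-fold (2.30 to 4.75) higher at 12 ng/ml, Cnn1 1.90-fold (1.53 to 2.38), Tagln 1.83-fold (1.72 to 1.95) and Cnn2 1.35-fold (1.30 to 1.41). Acta2 did not differ beyond counting error (1.05-fold, 0.963 to 1.15), and Tpm2 was 0.947 times (0.908 to 0.987) its level at 3 ng/ml. With 1 library of each dose, the spread between cultures of the same dose is not known, and these ratios cannot be told apart from it.

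Shares of cells were compared after each cell had been thinned to 10000 UMIs, which left out between 9 and 39 cells per library. Acta2 was then detected in 56.9% (54.5 to 59.3), 22.6% (20.7 to 24.7), 9.28%, 11.5% and 11.5% of cells. Without thinning the share with the FGFRi was 66.3%. Tagln was detected in 66.2% (63.9 to 68.5), 31.7% (29.5 to 34.0), 13.0%, 5.67% and 6.84% of cells. Both genes were found in a larger share of cells with the FGFRi than in any FGF2 library, and in a larger share at 0 ng/ml than at the other doses. Among the 3 higher doses the shares of Acta2 went against its CPM, which was highest at 0.75 ng/ml, and no order is read from them.

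Tpm1 was detected nearly everywhere, in 98.7% of FGFRi-treated cells and at least 84.3% of cells in each FGF2 library. Actn1 was found in 84.5%, 74.99%, 67.6%, 66.4% and 66.9% of cells, and Tagln2 in 85.8%, 70.8%, 61.1%, 55.7% and 57.3%. Cnn2 was found in 84.5% of cells with the FGFRi and 24.6% at 3 ng/ml. At the low end, Ccn2 was found in 11.2% (9.72 to 12.8) of cells with the FGFRi and 0.567% (0.294 to 0.989) at 3 ng/ml, and Cnn1 in 17.5% and 1.61%. For these sparse genes a share also depends on the level in each cell.

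**Figure D2:**
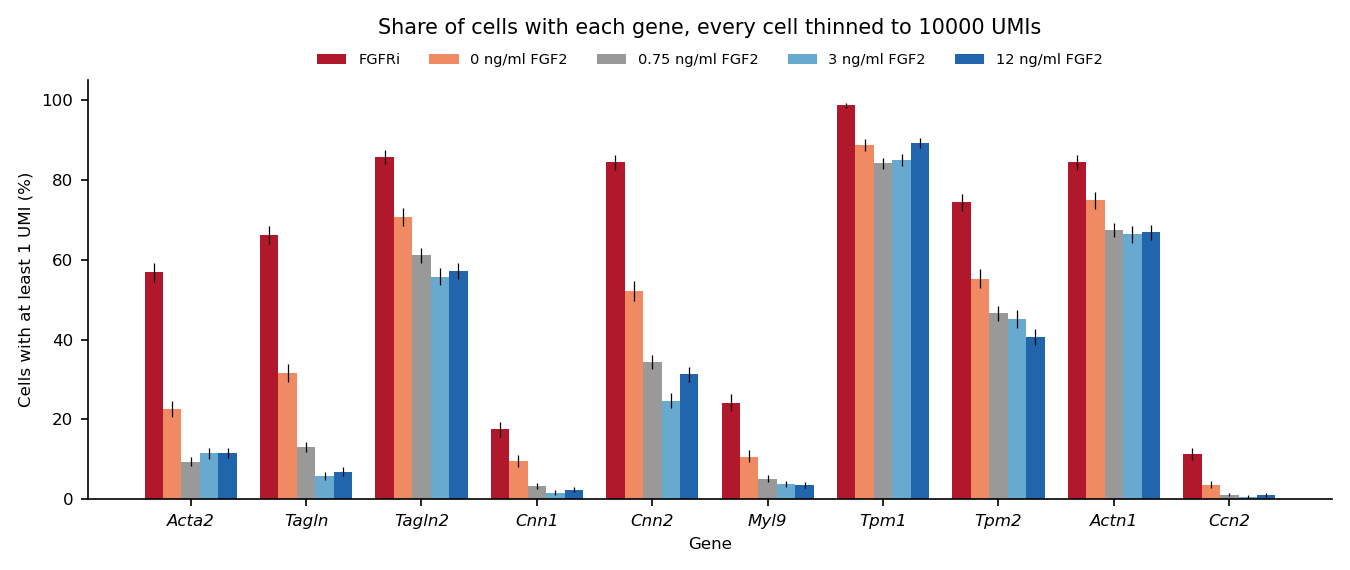
Share of retained cells (%) with at least 1 UMI of each gene after thinning every cell to 10000 UMIs, by library, with exact binomial 95% intervals. Tpm1 is found in most cells of every library, from 84.3% upward, whereas Tagln goes from 66.2% with the FGFRi to 5.67% at 3 ng/ml.

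At 3 and 12 ng/ml, detection of Acta2 and Tagln differed in opposite directions between cells with and without T or Tbx6 UMIs. T and Tbx6 encode transcription factors of the primitive streak and presomitic mesoderm, and cells with a UMI of either before thinning served as a reference class. At 12 ng/ml, after thinning, Tagln was detected in 4.54% (3.69 to 5.52) of 2093 cells with a T or Tbx6 UMI and in 22.7% (18.1 to 27.8) of 304 cells without one. Acta2 was detected in 12.4% (10.99 to 13.9) of the former and 5.59% (3.29 to 8.80) of the latter. Median depths before thinning were 27488 and 27529.5 UMIs. Acta2 was thus found more often in cells with T or Tbx6 UMIs, and Tagln more often in cells without them. At 3 ng/ml the shares were 13.5% against 4.52% for Acta2 and 4.73% against 9.03% for Tagln. The part of RNA free in the droplets in these shares was not tested. At 0 ng/ml the order for Acta2 was the other way but the intervals overlapped (20.2% of 435 cells against 23.5% of 1244). Its mean there was lower in cells with a T or Tbx6 UMI, at 0.469 thinned UMIs per cell against 1.34. At 0.75 ng/ml Acta2 was detected in 11.5% against 7.03% of cells, but its mean was 0.17 against 0.196 UMIs. Shares and mean levels of Acta2 thus did not always run together.

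Within the FGFRi and 0 ng/ml libraries levels of the genes were correlated from cell to cell. Pearson correlations of log(1 + UMI) across cells thinned to 10000 UMIs were positive for all 45 pairs of genes in both libraries, with a median of 0.443 over 1662 FGFRi-treated cells (0.0603 to 0.71) and 0.372 over 1679 cells at 0 ng/ml. Acta2 and Tagln had the highest r with the FGFRi, and Cnn2 and Tpm1 the highest at 0 ng/ml (0.711). Myl9 and Ccn2, both sparse, had the lowest r in both. At 0.75, 3 and 12 ng/ml the medians were 0.211, 0.0953 and 0.11, and the pair of Acta2 and Tagln2 had an r of -0.056 at 3 ng/ml. In counts this sparse weak values carry little information, and all cells of a library share its preparation.

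**Figure D3:**
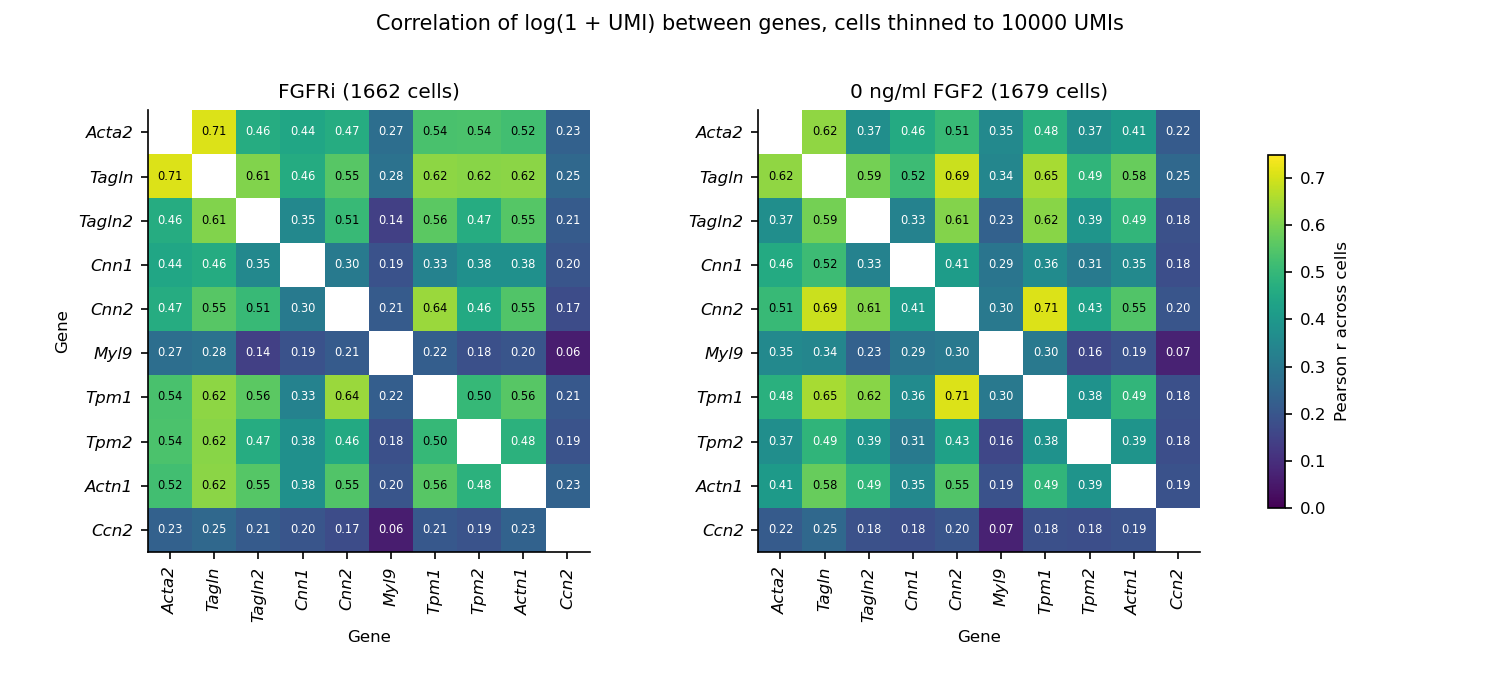
Pearson r between genes across the cells of the FGFRi library (1662 cells, left) and of the 0 ng/ml FGF2 library (1679 cells, right), from log(1 + UMI) after thinning to 10000 UMIs. Acta2 and Tagln reach 0.71 with the FGFRi, and Myl9 and Ccn2 have the lowest r, 0.0603 in that library.

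Acta2 and Tagln UMIs were less concentrated in few cells with the FGFRi than at 0 ng/ml. The 10% of cells with most Tagln held 51.5% of its thinned UMIs with the FGFRi and 78.7% at 0 ng/ml, and for Acta2 58.2% and 84.3%. At 3 and 12 ng/ml, the 1% of cells with most Tagln (22 and 24 cells) held 65.3% and 53.8% of its UMIs. Such shares also rise when fewer UMIs are counted. Tagln averaged 15.7 thinned UMIs per cell with the FGFRi and 3.58 at 0 ng/ml, and the part of level in these shares was not tested. Without the 5% of cells with most Acta2, its level was no longer lower at 3 than at 0.75 ng/ml but higher, by 0.28 on the log2 scale. In the upper 10% of cells by Tagln, the other genes were also higher. Acta2 averaged 31.6 thinned UMIs in the 167 such cells of the FGFRi library and 5.97 in the rest (5.30-fold), and 6.60 against 0.502 (13.1-fold) at 0 ng/ml. Cnn1 was 6.98-fold and 13.9-fold higher in these cells, Tpm1 1.89-fold and 3.81-fold, and Cnn2 1.96-fold and 4.89-fold. T averaged 0.0179 UMIs in the Tagln-high cells at 0 ng/ml and 0.289 in the rest. The Tagln-high cells were deeper before thinning, with medians of 34357 against 23917 UMIs (FGFRi) and 39819.5 against 28950 (0 ng/ml). The part of depth, or of droplets with more than 1 cell, in these ratios was not tested.

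With the FGFRi, 26.0% (23.9 to 28.2) of cells held at least 8 of the 10 genes after thinning. The share was 8.99% (7.67 to 10.5) at 0 ng/ml, 1.59% (1.15 to 2.13) at 0.75 ng/ml, 0.0473% (1 cell) at 3 ng/ml and 0.292% (7 cells) at 12 ng/ml. Cells with both Acta2 and Tagln made up 47.8% and 16.3% of the FGFRi and 0 ng/ml libraries and 0.793% at 12 ng/ml. At that dose 10.7% of cells held Acta2 without Tagln, and 6.05% the reverse.

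Levels were also compared by cadherin state. Cdh1 encodes E-cadherin, kept by epithelial cells, and Cdh2 N-cadherin, gained by mesoderm. Cells were divided by detection of at least 1 UMI of each, so a state need not hold the same kinds of cells in each library. At 0 ng/ml, 438 of 1696 cells had a T or Tbx6 UMI, and 83.1% of these had a Cdh2 UMI. With the FGFRi, 33 of 1701 cells had a T or Tbx6 UMI. The part of such cells in the ratios by state was not tested. The FGFRi library held 617 cells with Cdh1 only, 625 with Cdh2 only, 350 with both and 109 with neither, and the 0 ng/ml library 734, 486, 369 and 107. Median depths were 24053 and 23608 UMIs for Cdh1-only and Cdh2-only cells with the FGFRi, 27733 and 29153 UMIs at 0 ng/ml, and 31058 and 39233 UMIs for cells with both.

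At 0 ng/ml, most of the 10 genes were lower in Cdh2-only than in Cdh1-only cells. Tagln was counted at 350 CPM in Cdh1-only cells and 132 CPM in Cdh2-only cells, a ratio of 0.378 (0.360 to 0.397). Tagln2 had 419 and 104.6 CPM (0.2495, 0.236 to 0.263), Cnn2 212 and 69.9 CPM (0.329) and Tpm1 1644 and 800.4 CPM (0.487). Of the 10 genes, 9 had a ratio under 1, with intervals clear of 1 for 8 of them, and Acta2 had one over 1 (79.1 and 88.4 CPM, 1.12, 1.04 to 1.20). The same split, with 9 genes lower and Acta2 higher, was found at 0.75, 3 and 12 ng/ml, although the interval of Ccn2 held 1 at 3 ng/ml (0.193 to 1.06). How many of all genes were lower in Cdh2-only cells was not computed, so nothing is read from these counts. At 12 ng/ml Tagln reached 96.6 CPM in Cdh1-only and 5.10 CPM in Cdh2-only cells (0.0528, 0.0452 to 0.0615), whereas Acta2 had 7.29 and 19.0 CPM (2.61, 2.05 to 3.36).

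With the FGFRi the order was different. The share of all genes with such an order was not computed, and nothing is read from the counts of genes. Of the 10 genes, 8 were higher in Cdh2-only than in Cdh1-only cells, 7 of them with intervals above 1. Acta2 was counted at 418 CPM in Cdh1-only and 1314 CPM in Cdh2-only cells (3.14-fold, 3.06 to 3.23), Cnn1 at 30.5 and 58.1 CPM (1.90-fold, 1.71 to 2.12), Myl9 at 31.4 and 54.8 CPM (1.75-fold, 1.57 to 1.95) and Tagln at 1506 and 1790 CPM (1.19-fold, 1.17 to 1.21). Tpm1, Tpm2 and Cnn2 were between 1.04-fold and 1.12-fold higher. Actn1 (0.970, 0.936 to 1.00) and Ccn2 (1.03, 0.895 to 1.18) did not differ beyond counting error. Tagln2 alone was lower with an interval under 1 (626 and 439 CPM, 0.701, 0.680 to 0.722).

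**Figure D4:**
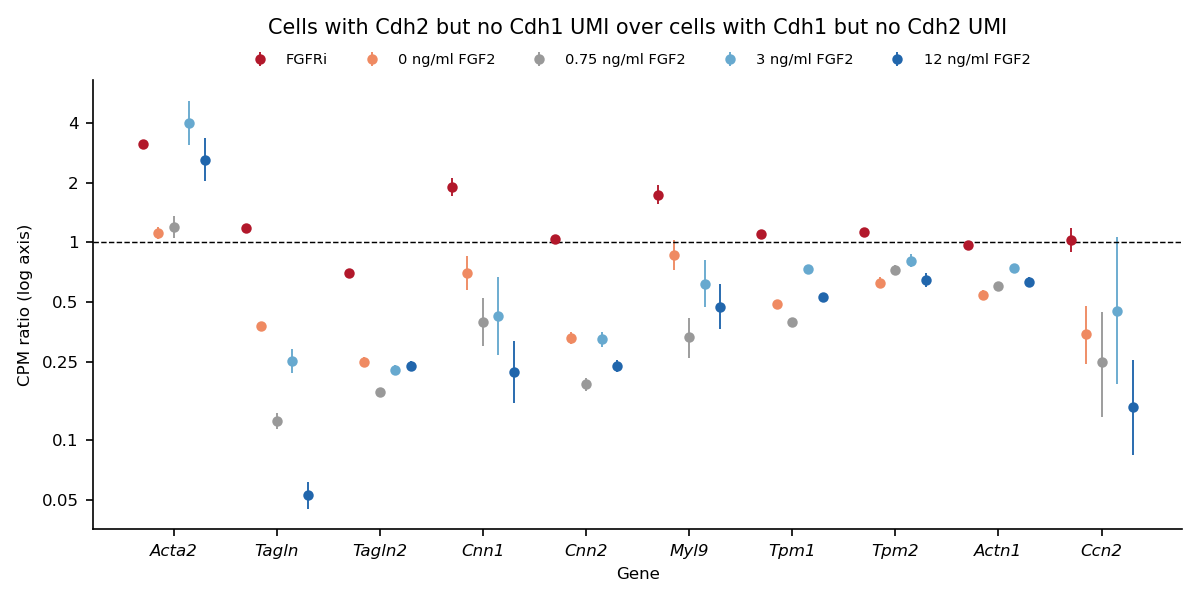
Ratio of CPM in cells with Cdh2 but no Cdh1 UMI to CPM in cells with Cdh1 but no Cdh2 UMI (log axis), per gene and library, with exact 95% intervals. The dashed line is a ratio of 1. In the FGF2 libraries 9 of 10 genes lie below it and Acta2 above, and with the FGFRi 8 of 10 lie above it. The shares of all genes on each side were not computed.

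The difference between FGFRi and 0 ng/ml was present in each cadherin state, though the cells in a state can differ between the libraries. In Cdh2-only cells all 10 genes were at least 2-fold higher with the FGFRi, from 2.70-fold (2.57 to 2.84) for Actn1 to 13.5-fold (12.9 to 14.2) for Tagln and 14.9-fold (14.1 to 15.7) for Acta2. Ccn2 was 8.40-fold (6.17 to 11.7) higher there. In Cdh1-only cells 6 of the 10 were at least 2-fold higher, from 1.49-fold for Tagln2 to 4.30-fold (4.20 to 4.41) for Tagln and 5.29-fold (5.02 to 5.57) for Acta2. The median ratio was 5.11 in Cdh2-only cells, 2.05 in Cdh1-only cells, 1.78 in cells with both and 2.47 in cells with neither. All 10 genes had intervals above 1 in each of the 4 states. No share over all genes was computed within a state. As the genes were chosen by their levels in these libraries, nothing is read from these counts.

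Cells with both cadherins had the highest level of all 10 genes at 0 ng/ml and of 9 with the FGFRi, where Myl9 was highest in Cdh2-only cells. They were highest for 8 genes at 0.75 ng/ml, but for 1 at 3 ng/ml and 2 at 12 ng/ml, where Cdh1-only cells were highest for 7 genes each. The share of all genes with their highest level in a given state was not computed, and nothing is read from these counts. Tagln reached 1053 CPM and Acta2 300.3 CPM in these cells at 0 ng/ml, and 2823 and 1498 CPM with the FGFRi. At 0 ng/ml, 21.8% of cells were in this state and held 61.4% of the Tagln UMIs and 59.3% of the Acta2 UMIs. These cells were also the deepest, and the part of depth in their levels was not tested beyond alternatives for the cells or states used. The counts of 10 and 9 genes were the same without the 5% of cells with most UMIs in each library, an alternative chosen after seeing the data. The counts with states from thinned cells, or with 2 UMIs required for a cadherin, are not given here.

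**Figure D5:**
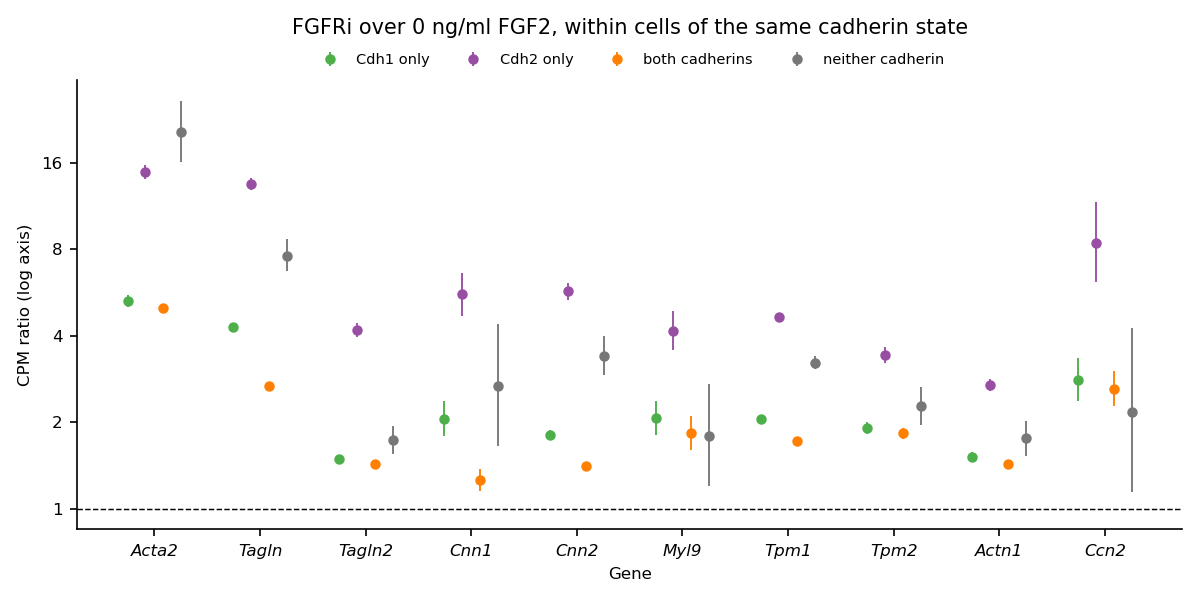
Ratio of CPM in the FGFRi library to CPM at 0 ng/ml FGF2 (log axis) for each gene within cells of the same cadherin state, with exact 95% intervals. All points lie above the dashed line at 1, and those of Cdh2-only cells are highest for 9 of the 10 genes. Acta2 is the exception, at 14.9 in Cdh2-only cells and 20.5 in cells with neither cadherin.

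Several defining genes of mature smooth muscle were at or near 0. Myh11, the smooth muscle myosin heavy chain, was counted at no more than 0.146 CPM in any library, and Myocd, which encodes myocardin, at 2.57 CPM with the FGFRi and 0.581 CPM at 0 ng/ml. Mylk, a kinase of the myosin light chain, had at most 1.255 CPM. Des, which encodes desmin, had 2.82 CPM with the FGFRi and 11.8 CPM at 12 ng/ml. Of 12 late smooth muscle genes, 7 reached 5 CPM in any library. Cald1 (caldesmon) had 1800, 743, 313, 197 and 261 CPM and Csrp1 315, 142, 58.9, 34.7 and 37.6 CPM across the libraries, and both, the only 2 of the list that reached 50 CPM, passed the rule of size as lower at 0 ng/ml than with the FGFRi (background 4.6%) and as lower at 0.75 than at 0 ng/ml (background 1.35%). The median log2(CPM + 1) difference over the 7 genes was -0.89 from the FGFRi to 0 ng/ml. Lmod1, a leiomodin, had 14.2 and 7.18 CPM and Actg2, the gamma smooth muscle actin, 6.88 and 1.25 CPM, with the FGFRi and at 0 ng/ml. The name smooth muscle is therefore used here for the genes, by their textbook role, and not for the cells.

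Nonmuscle counterparts were also lower at 0 ng/ml than with the FGFRi at the median. Of 12 such genes, 11 reached 50 CPM and none passed the rule of size between the FGFRi and 0 ng/ml, with a median log2(CPM + 1) difference of -0.65 over these 11. Actb had 7684, 4853, 3723, 3211 and 3349 CPM. Myl12b, which encodes a nonmuscle myosin light chain, was an exception (87.0 CPM with the FGFRi and 99.4 CPM at 0 ng/ml). Among 15 cardiac and skeletal sarcomere genes, 4 reached 5 CPM. Acta1 (skeletal actin) had levels of 120, 76.3, 29.3, 7.62 and 8.89 CPM and passed the rule as lower at 0.75 than at 0 ng/ml (background 1.35%), and Myod1 had no UMI in any library.

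Of SRF and 7 cofactors and related factors, none reached 50 CPM. Srf had 13.1 CPM with the FGFRi and 14.8 CPM at 0 ng/ml, and Mrtfa and Mrtfb had 13.2 and 21.8 CPM with the FGFRi and 10.4 and 18.4 CPM at 0 ng/ml. Fhl2, a cofactor of SRF, had 49.2, 15.1, 5.07, 4.02 and 6.37 CPM. Of 14 further SRF and MRTF targets, 12 reached 50 CPM and 5 of these passed the rule of size as lower at 0 ng/ml than with the FGFRi, beside 4.6% of all genes. From the FGFRi to 0 ng/ml, the largest ratios among them were those of Filip1l (124 and 31.1 CPM), Tgfb1i1 (95.1 and 38.7 CPM), Msn (moesin, 485 and 203 CPM) and Itgb1 (integrin beta 1, 617 and 287 CPM). The median log2(CPM + 1) difference of the 13 targets that reached 5 CPM was -0.94.

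Of 14 YAP and TEAD targets and partners, 7 reached 50 CPM and 2 of these passed the rule as lower at 0 ng/ml (background 4.6%), Ccn1 (171 and 75.02 CPM), a homolog of Ccn2, and F3 (63.0 and 27.3 CPM). The median over the 13 that reached 5 CPM was -0.52. Yap1 itself had 39.3 and 46.9 CPM. In the TGF beta list, 4 of the 6 genes that reached 50 CPM passed as lower at 0 ng/ml (background 4.6%), and the median over the 11 that reached 5 CPM was -1.30. The 4 genes were Thbs1 (179 and 38.1 CPM), Tgfbi (77.4 and 24.3 CPM), Ltbp1 (68.1 and 23.1 CPM) and Fn1 (826 and 293 CPM), and Fn1, which encodes fibronectin, was again higher at 12 ng/ml (387 CPM) than at 0.75 ng/ml (179 CPM). From 0 to 0.75 ng/ml, Ccn1 was the 1 of 5 genes of the YAP and TEAD list that passed, as lower, and none of 3 passed in the TGF beta list (background 1.35%). No gene of these lists passed the rule as higher at 0 ng/ml than with the FGFRi.

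Markers of other cell types differed between the same libraries. The summed level of 8 extraembryonic mesoderm and mesenchyme markers was 1185, 554, 270, 163 and 168 CPM across the libraries. With the FGFRi and at 0 ng/ml, Ahnak had 704 and 313 CPM, most of each sum, Pmp22 250.1 and 67.7 CPM and Prrx1 77.9 and 6.53 CPM. The lower sum at 0 ng/ml than with the FGFRi came from these genes, and the other markers of the list together were not lower. Hand1 had 63.5 and 85.7 CPM, and Hand2 had at most 0.481 CPM. Of the 8, 5 reached 50 CPM and 3 of these passed the rule as lower at 0 ng/ml than with the FGFRi (background 4.6%). The summed level of 8 fibroblast markers was 135 CPM with the FGFRi and between 21.3 and 38.7 CPM in the other libraries. Col1a1 had 24.2 and 2.18 CPM and Postn 24.3 and 1.94 CPM with the FGFRi and at 0 ng/ml, and 5 of the 8 reached 5 CPM. The defining endothelial markers Emcn, Tie1 and Cdh5 were at or near 0, with at most 0.263 CPM, and 1 of 7 endothelial markers reached 5 CPM, with sums of 18.1 to 24.0 CPM. The 7 mural markers summed to 45.2 and 28.4 CPM, with Cspg4 at 0.230 CPM. The 6 cardiomyocyte markers summed to no more than 9.10 CPM, and none reached 5 CPM. The 9 surface and epithelial markers summed to 3038, 2676, 2006, 1160 and 1098 CPM. The 8 presomitic and streak markers ran the opposite way, with sums of 6.29, 99.1, 269, 567 and 635 CPM, and T (26.7 and 92.7 CPM) and Fgf8 (24.5 and 72.3 CPM) passed the rule as higher at 0.75 than at 0 ng/ml, 2 of 3 that reached 50 CPM (background 0.164%). The part of these cell types in the levels of the contractile genes was not tested.

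The genes with profiles most like that of the 10 genes were found across 20 groups of library and cadherin state, by correlation of log2(CPM + 1) with the mean standardized profile of the 10 among 3998 genes. They were Tuba1a, Cald1, Fosl2, Csrp1, Ilk, Parva, Pdlim7, Actb, Vcl and Creb3, with r between 0.985 and 0.994. The list depended on the groups, and 0 of these 10 were among the first 10 when the 5 libraries were used without division by cadherin state. Fosl2 did not reach 50 CPM in any library and was not ranked there. The others kept an r between 0.991 (Actb, rank 200) and 0.999 (Tuba1a, rank 17) over the 5 libraries. Tuba1a encodes a tubulin, Ilk and Parva adhesion proteins that bind each other, and Vcl vinculin. The profile was shared widely, and r was over 0.9 for 433 of 3988 other genes. Groups of 1 library are not independent. Of the 10 genes themselves, Tpm2 (0.984) and Tpm1 (0.981) were nearest to the mean profile, to which they contribute, and Tagln2 (0.887) and Acta2 (0.889) farthest from it.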

How the data were processed

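The authors deposited raw UMI counts per gene and barcode, made from 10x Genomics 3′ v3.1 libraries of 5 cultures by Cell Ranger with alignment to mm10 (GENCODE vM23/Ensembl 98 in the methods). The matrix headers name version 5.0.1, the methods an earlier one. The deposited counts are not normalized and hold all barcodes that Cell Ranger called as cells.

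Cells were filtered as in the methods (at least 2500 genes, at most 10% mitochondrial UMIs), which retained 10653 of 15375 barcodes and 321559590 UMIs. CPM, exact Poisson, conditional and binomial 95% intervals, and thinning without replacement were computed in Python 3.11.15 with NumPy 2.4.6, SciPy 1.17.1 and pandas 2.3.3, and TMM factors in edgeR 4.0.16. Doublets were not called. The steps were checked on simulated data. Intervals cover counting error only.

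The 10 genes and all lists were chosen with earlier results of these data known. The genes named were these 10, up to 4 members per list that passed the rule of size, defining markers at or near 0, and the 10 most similar genes. Other list members named (Actb, Myl12b, Des, Mylk, Lmod1, Actg2, Acta1, Srf, Mrtfa, Mrtfb, Fhl2, Yap1, Hand1, Col1a1 and Postn) were picked after their values were seen. A comparison of the proteins was not run, and 1 gene list is not reported here.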

Additional observations from a re-analysis of the deposited data

Results flagged for a closer look

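For 5 genes, the ratio of Cdh2-only to Cdh1-only cells lay on opposite sides of 1 in the FGFRi and 0 ng/ml libraries, with both counting intervals clear of 1. These were Tagln (1.19 with the FGFRi, 0.378 at 0 ng/ml), Cnn1 (1.90, 0.703), Cnn2 (1.04, 0.329), Tpm1 (1.11, 0.487) and Tpm2 (1.12, 0.626). With 1 library on each side the difference was not tested, and the share of all genes with such a change was not computed.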

How the results depend on the processing

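With 1 library per condition no replicate could be left out, and no paired analysis was possible because no group had a second sample. Of 130 summary values under alternatives, 111 stayed within the limits of the main ones. Limits were a factor of 1.5 for counts and the mean half-width of the counting intervals for median log2 ratios. A median r had to be equal, so each median r at 5000 UMIs counted as moved. Among the 111 were all those under another mitochondrial limit, all barcodes, TMM or size factors, equal weight per cell and no shared barcodes. Of values for single genes, 102 of 394 log2 ratios, 21 of 60 ratios between states and 100 of 100 shares left their counting interval. For the shares, the main value was the one without thinning and the alternatives were thinned cells, in which detection falls by design. The count of 100 therefore cannot show whether the thinned shares given above are stable. A further 1 log2 ratio, with a main interval clear of no difference, changed direction. In all, 2 of 394 log2 ratios had a sign opposite to the main one. Numbers of genes past 2-fold depended on the rule. The shares of all genes that passed the other rules are not given here, so nothing is read from the counts that follow. With a ratio of 1.5, 8 were lower at 0 ng/ml than with the FGFRi, 7 at 0.75 than at 0 ng/ml and 3 at 3 than at 0.75 ng/ml. With a minimum of 10 CPM, 6 were lower at 0.75 and 8 at 12 than at 0 ng/ml, and with none beyond 3 counts 6, 8 and, at 3 than at 0.75 ng/ml, 3. Without the 5% of cells with most of each gene's UMIs, the medians were -1.41 (FGFRi to 0 ng/ml), -1.49 (0 to 0.75 ng/ml) and -2.12 (0 to 12 ng/ml), none was at least 2-fold lower (0) from 0.75 to 3 ng/ml, and Acta2 was higher by 0.28 on the log2 scale at 3 than at 0.75 ng/ml. In that setting Ccn2 and, in part, Cnn1 were left with 0 UMIs at FGF2 doses and gave no finite log2 ratio there. In the medians, a gene that fell to 0 UMIs counted as the lowest value. Without the 5% of cells with most UMIs, the median from 0 to 0.75 ng/ml was -1.26. At 5000 UMIs the median r between genes was 0.353, 0.31, 0.158, 0.0607 and 0.107 from the FGFRi to 12 ng/ml. Over 5 libraries in place of 20 groups, 0 of the 10 most similar genes stayed among the first 10. The alternative without the deepest cells by cadherin state was chosen after seeing the data. With it 9 in place of 8 genes were higher in Cdh2-only than Cdh1-only FGFRi-treated cells, and 5 in place of 6 were at least 2-fold higher with the FGFRi in Cdh1-only cells. With 2 UMIs required for a cadherin, or states from thinned cells, these counts were 7 and 4. The causes were not tested.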
